A study of Mus musculus with 40 samples.

Results

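The 52 genes described here carry cells through G2 and mitosis, and were taken by symbol out of the 24062 genes counted by RNA-Seq in mouse embryonic fibroblasts (MEFs). All 52 were found in the count table, and all 52 passed the filter on low counts in each comparison below. The cells were primary MEFs of embryos at 13.5 days post coitum, at passage 3, of a mixed C57BL/6J-129P2OlaHsd strain. They were WT, heterozygous (Het) or knockout (KO) for Sall2, which encodes a zinc finger transcription factor. The KO allele was made in embryonic stem cells of the 129P2 strain, so KO cells can also carry 129P2 sequence next to Sall2 that WT cells lack. Each genotype was grown without treatment (control) or with 1 µM doxorubicin for 16 h. There were 1 WT, 1 Het and 3 KO embryos in control, and 1 WT, 1 Het and 2 KO embryos with doxorubicin, because the library of the third KO embryo with doxorubicin held the same count as that of the second for 24062 of 24062 genes and was counted once. That library is called KO 2 here, since it held 4163 counts of Xist and 0 of the Y-linked genes, where the KO 2 control held 5997 and 1 and the KO 3 control 31 and 6397. The number that a label gives after the genotype is taken to mark the embryo in both treatments, which no label states. With 1 WT and 1 Het embryo per treatment, the spread between embryos of a genotype can be measured in KO alone. The WT, Het and KO 2 libraries held mostly Xist counts, and those of KO 1 and KO 3 mostly Y-linked counts. Comparisons of KO with WT are therefore mixed with a difference of sex between embryos.

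A dividing cell enters mitosis when cyclin B and CDK1, switched on by CDC25 phosphatases and assisted by Polo-like and Aurora kinases, drive the chromosomes to condense and the spindle to form. The spindle assembly checkpoint then holds the cell until every kinetochore is attached, the anaphase-promoting complex destroys securin and cyclin B, and a contractile ring separates the daughter cells. Transcripts of these genes are low in G1 and rise in G2 through the MuvB proteins together with B-MYB and FOXM1, and resting or damaged cells repress many of them through the DREAM complex, which p53 engages by way of p21. Doxorubicin intercalates into DNA and traps topoisomerase II on it, which leaves breaks in the DNA.

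The total counts of the 9 libraries lay between 15560728 and 24122414, and 3 counts corresponded to between 0.123 and 0.169 CPM (counts scaled to a common library size with TMM factors). No member was at 0 in any library. Sall2 itself stood at 38.0 CPM in WT, 24.0 CPM in Het and 20.1, 24.4 and 19.1 CPM in KO 1, KO 2 and KO 3 in control. With doxorubicin it stood at 9.36 CPM in WT, 7.80 CPM in Het and 4.19 and 3.72 CPM in KO 1 and KO 2. The KO libraries were thus below WT in both treatments and not at 0, and the counts do not tell on which part of the gene the reads fell. The 12 fibroblast markers were above 0 in every library. Their summed level was 100167, 83002 and 90976 CPM in the WT, KO 1 and KO 2 controls, and 21381 and 17276 CPM in the Het and KO 3 controls.

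The Het and KO 3 controls stood apart from the other 3 controls, and the members were low in both. The summed level of the 52 members was 3257 CPM in WT, 4323 CPM in KO 1 and 3284 CPM in KO 2, but 1123 CPM in Het and 1547 CPM in KO 3. The TMM factors of these controls were 0.824, 0.815 and 0.822 against 1.25 and 1.22. Without these factors the members were 0.268%, 0.352% and 0.270% of all counts in WT, KO 1 and KO 2. In Het and KO 3 they were 0.141% and 0.188%, so the gap was smaller but in the same direction. In the Het control 51 of 52 members were below the WT control, with a median difference of -1.52 on the log2 CPM scale. The KO 3 control had 47 of 52 below WT and a median difference of -1.11, whereas KO 1 had 49 of 52 above WT and a median of 0.41, and KO 2 a median of 0.03. Both the Het and KO 3 controls were below the other 3 controls for 47 of 52 members (90.4%), against 38.6% of the 14883 genes tested. In bulk RNA, fewer dividing cells and less RNA per cell cannot be told apart.

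**Figure D1:**
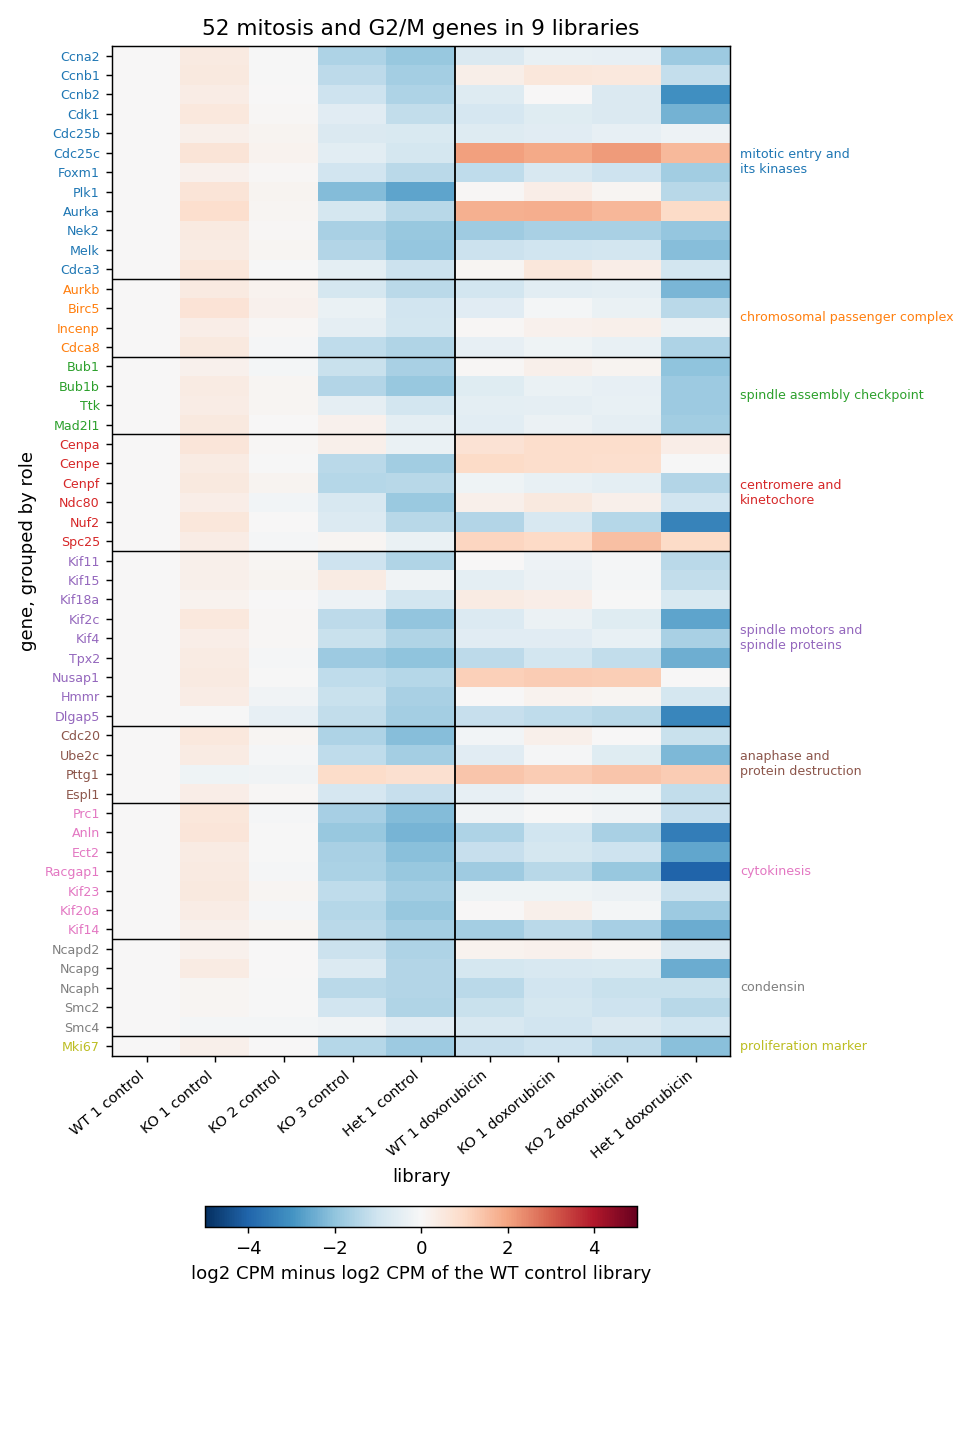
Heat map of the 52 members (vertical axis, grouped by role) in the 9 libraries (horizontal axis), coloured by log2 CPM minus log2 CPM of the WT control, with blue for lower and red for higher. The KO 3 and Het controls are blue for nearly every member, and Cdc25c, Aurka, Spc25 and Pttg1 are red in all 4 doxorubicin libraries.

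Other lists moved with the members across these libraries. The 34 genes of G1/S and DNA replication summed to 1866, 2381 and 1924 CPM in the WT, KO 1 and KO 2 controls and to 774 and 1030 CPM in the Het and KO 3 controls. The 10 interferon-stimulated genes ran the other way, at 46.4, 63.7 and 47.6 CPM against 2177 and 2400 CPM. The 9 macrophage markers, none of them at 0, summed to between 108 and 188 CPM in the WT, KO 1 and KO 2 controls and to 650 and 474 CPM in Het and KO 3. With doxorubicin the Het library again stood apart from the other 3, at 691 against 98.5 to 147 CPM for macrophage markers, 1420 against 332 to 419 CPM for interferon-stimulated genes and 23196 against 50219 to 63169 CPM for fibroblast markers. Endothelial, epithelial, muscle and neural markers summed to at most 225 CPM in any library, with Krt14 at 0 in every control and Tie1, Epcam, Cdh1, Krt5 and Myf5 each at 0 in at least 1 library. The part of these differences in the results below was not tested, and the counts of members are therefore given with and without the Het libraries and the KO 3 control.

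**Figure D2:**
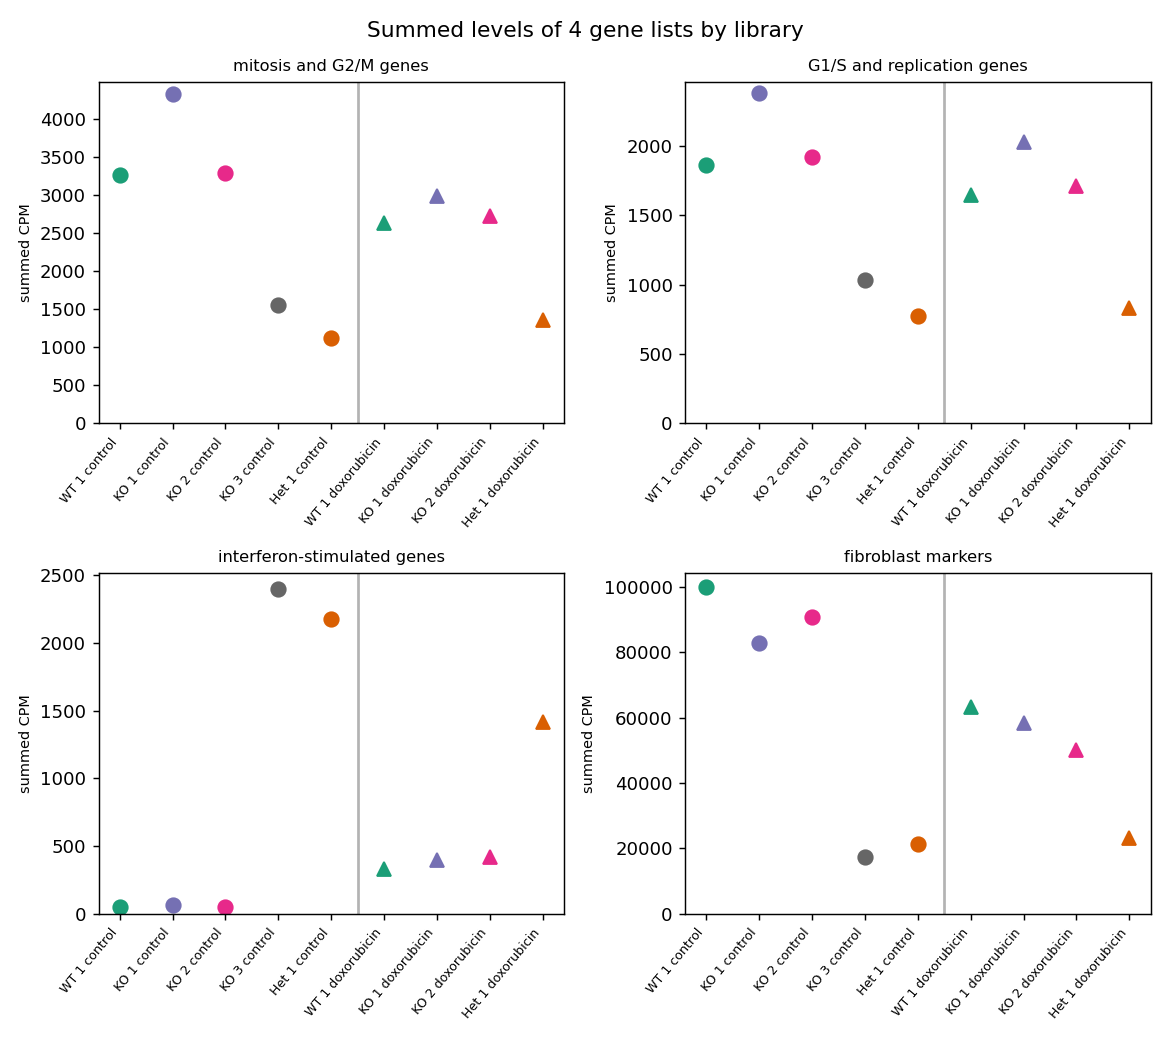
Summed CPM (vertical axes, from 0) of 4 gene lists in the 9 libraries (horizontal axes), with circles for control, triangles for doxorubicin and 1 colour per embryo. The KO 3 and Het controls have 1547 and 1123 CPM of members against 3257 CPM in the WT control, and 2400 and 2177 CPM of interferon-stimulated genes against 46.4 CPM.

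Whether doxorubicin changed the members was asked over all 9 libraries with genotype as a term. Of the 52 members, 5 fell (9.62%), where 20.2% of the 14883 genes tested fell, and 5 rose (9.62%), where 21.9% of all genes rose, by edgeR's quasi-likelihood test at an FDR under 0.01. Racgap1, Nuf2, Dlgap5, Mad2l1 and Smc4 fell, by 1.61, 1.35, 1.03, 0.71 and 0.61 on the log2 scale. Cdc25c, Aurka, Nusap1, Spc25 and Cenpa rose, by 2.097, 1.85, 1.40, 1.20 and 0.66. The other 42 members did not pass the threshold, 31 of the 52 were below zero, and the median log2 fold change was -0.23 against -0.02 over all genes tested. All 4 doxorubicin libraries lay below all 5 controls for 1 member, Smc4, against 24.3% of all genes, and above them for 4 members, Cdc25c, Aurka, Spc25 and Pttg1, against 23% of all genes.

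These counts moved with the libraries that entered the fit. Without the Het libraries and the KO 3 control, a choice made after the data were seen, 28 members fell (53.8%) and 7 rose (13.5%), against 32.4% and 35.4% of the 14629 genes then tested, and the median was -0.54 against 0.04. The 10 members called over 9 libraries were all among these 35. The members themselves were low in the Het and KO 3 controls left out (1123 and 1547 CPM summed), so the choice was not independent of their levels. Calls over these 6 libraries, here and by role below, are a description and not separate support. With the embryo as a replicate block over the 9 libraries, 21 members fell (40.4%) and 7 rose (13.5%), against 28.8% and 30.6% of all genes, and the 28 again held all 10. Called by the block beside these 10 were 16 lower and 2 higher members, which are named in their roles below. KO 3 has no doxorubicin library, so its own block term takes up its control, which adds nothing to the treatment effect. The block over 9 libraries, here and below, is thus close to the fit without the KO 3 control. It is not a separate check of that fit. Leaving out 1 library in turn gave 19 lower members without the KO 3 control (36.5%), against 29.4% of all genes. It gave 1 without the Het control, against 16.3% of all genes. Without any other library at most 2 fell, against 12.1% to 18.3%. Between 3 and 7 members rose in these fits, against 14.4% to 31.5% of all genes. Within KO alone, with 3 control and 2 doxorubicin libraries, edgeR called 0 members, with 10 at an unadjusted p under 0.05, while 4.76% of all genes fell and 8.06% rose. DESeq2 called 9 lower (17.3%) and 7 higher (13.5%) over the 9 libraries, against 24.6% and 27.2% of all genes. Upper-quartile scaling gave 2 lower (3.85%) and 7 higher (13.5%), against 16.2% and 25.1% of all genes. With that scaling the median of all genes moved from -0.02 to 0.14. Library totals without TMM gave 6 lower (11.5%) and 5 higher (9.62%), against 16.5% and 20.7% of all genes.

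**Figure D3:**
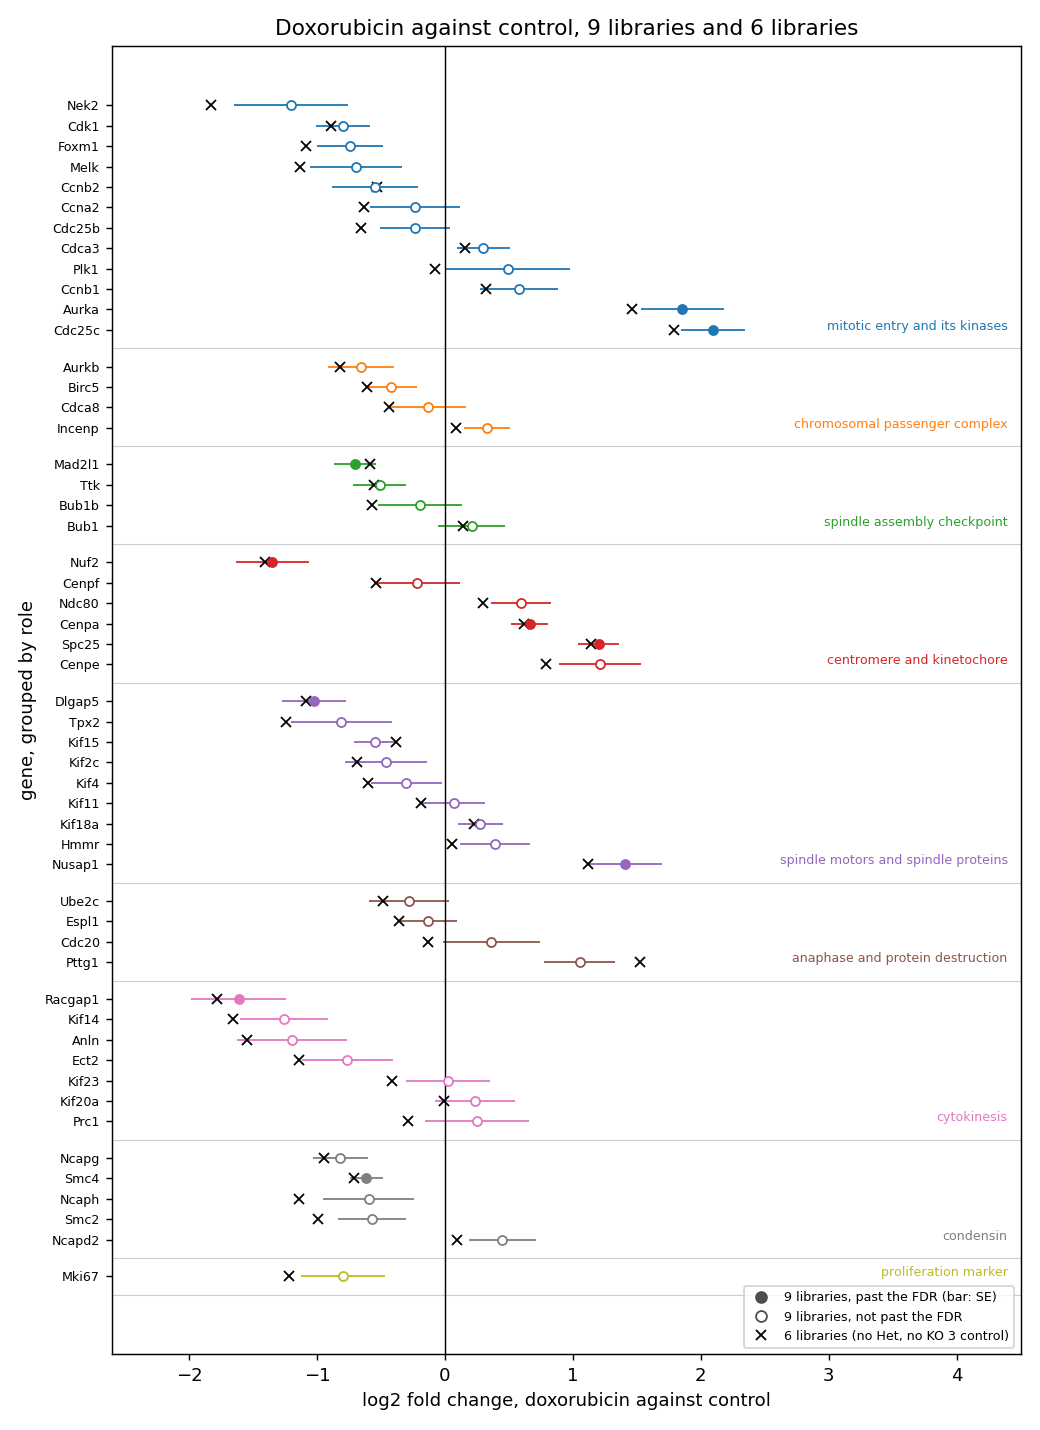
Log2 fold change of each member with doxorubicin against control (horizontal axis) by role (vertical axis). Circles with SE bars come from 9 libraries, filled where the FDR is under 0.01, and crosses come from the 6 libraries without Het and the KO 3 control. The median of the circles is -0.23 and that of the crosses -0.54.

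Embryo by embryo, the members were lower with doxorubicin in WT and KO but evenly split in Het. The median difference in log2 CPM was -0.52 in WT with 34 of 52 members lower, -0.70 in KO 1 with 41 lower and -0.43 in KO 2 with 38 lower. In Het it was -0.04, with 27 lower and 25 higher. The median over all genes tested lay between -0.11 and 0.03 in the 4 embryos. In all 4 embryos 26 members were lower (50%), against 38.7% of all genes, and 9 were higher (17.3%), against 36.8%. The 9 were Ccnb1, Cdc25c, Aurka, Cenpa, Cenpe, Ndc80, Spc25, Nusap1 and Pttg1.

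**Figure D4:**
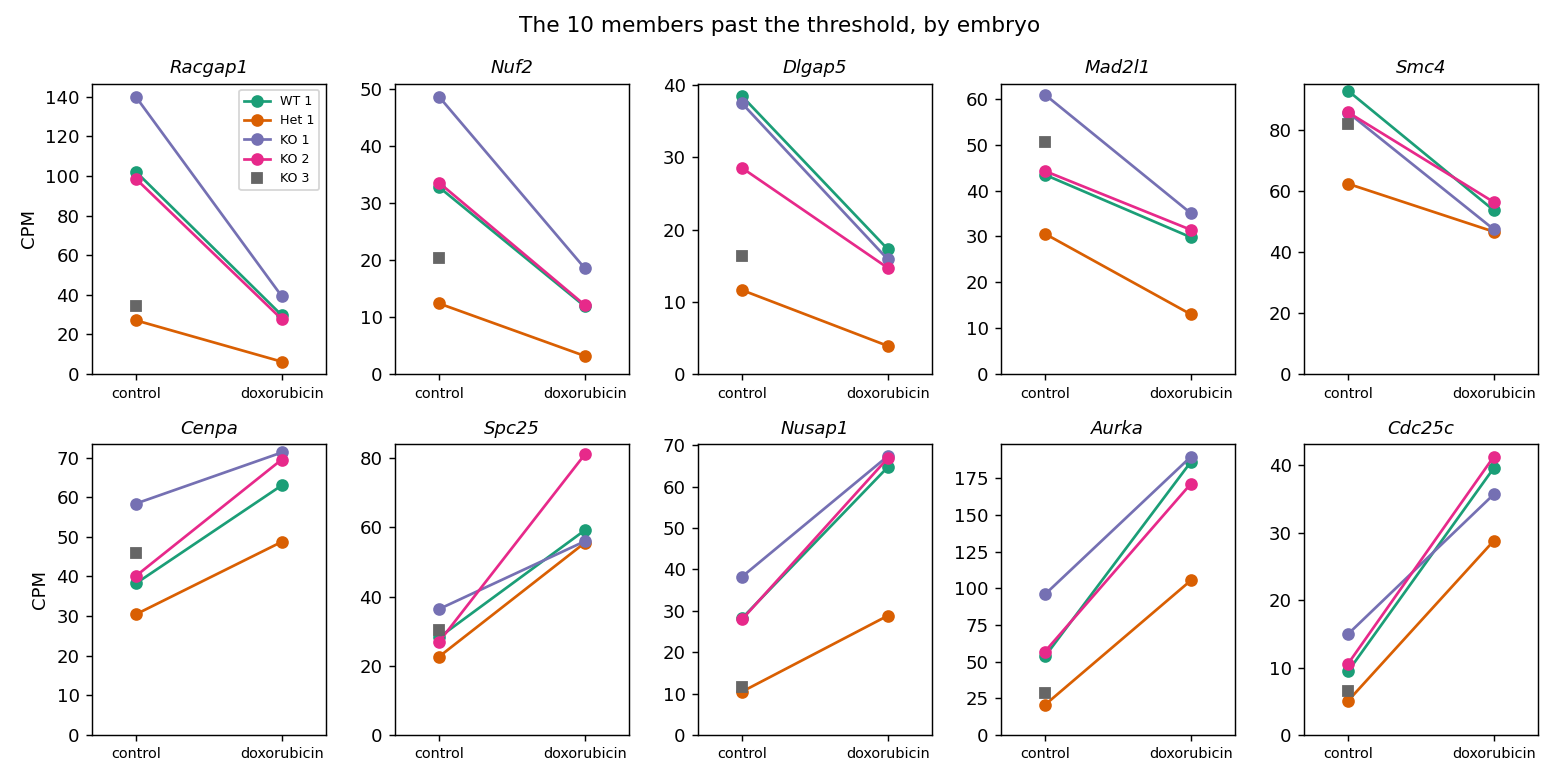
CPM (vertical axes, from 0) of the 10 members past the threshold in control and with doxorubicin, with a line for each of the 4 embryos and a grey square for the KO 3 control, which has no doxorubicin library of its own. The 5 genes of the upper row are lower and the 5 of the lower row higher with doxorubicin in each of the 4 embryos.

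Among the 12 genes of mitotic entry and its kinases, 0 fell and 2 rose over 9 libraries, and 6 fell and 2 rose without Het and the KO 3 control. For this role and those below, 20.2% of all genes tested fell and 21.9% rose over 9 libraries. Without Het and the KO 3 control these shares were 32.4% and 35.4%. Values per library are given in the order WT, Het, KO 1, KO 2 and KO 3 for control and WT, Het, KO 1 and KO 2 for doxorubicin. Aurka encodes Aurora A, the kinase of centrosome maturation and spindle assembly. It stood at 53.5, 20.5, 95.9, 56.9 and 28.7 CPM in control and at 186, 105, 189.8 and 171 CPM with doxorubicin. The groups did not overlap, and Aurka rose 3.62-fold (log2 fold change 1.85 ± 0.32 (SE), edgeR FDR = 0.00146).

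Cdc25c, the phosphatase that removes the inhibitory phosphates of CDK1, rose most of all members. It stood at 9.41, 5.03, 14.95, 10.5 and 6.58 CPM in control and 39.6, 28.8, 35.7 and 41.3 CPM with doxorubicin, so that each doxorubicin library was above every control. The increase was 4.28-fold (log2 fold change 2.097 ± 0.25 (SE), edgeR FDR = 0.00021). With 1 library left out in turn, Aurka and Cdc25c each stayed past the threshold in 9 of 9 fits, at an edgeR FDR of at most 0.00918 and 0.00211. Exons of Cdc25c share 623 of 4919 bases with a neighbouring coding gene of the annotation, and the strand setting of the counting is not given, so its level is uncertain.

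Cdk1, the kinase that drives mitotic entry, stood at 116, 49.6, 168, 121 and 78.8 CPM in control and 64.6, 22.7, 77.4 and 70.4 CPM with doxorubicin. It was lower with doxorubicin in every embryo but did not pass over 9 libraries (log2 fold change -0.80 ± 0.21 (SE), edgeR FDR = 0.0122), and the Het control lay below 3 of the 4 doxorubicin libraries. It fell with the replicate block (log2 fold change -0.92, edgeR FDR = 0.000137). Without Het and the KO 3 control it fell 1.86-fold (log2 fold change -0.89 ± 0.12 (SE), edgeR FDR = 0.000101). Nek2, a kinase that splits the centrosomes, had the lowest log2 fold change of the role at -1.20 ± 0.45 (SE), edgeR FDR = 0.047, from 38.1, 10.3, 52.3, 40.2 and 12.3 CPM in control to 11.1, 9.85, 12.3 and 12.4 CPM. The Het and KO 3 controls were already at the level of the doxorubicin libraries, and Nek2 fell with the replicate block (log2 fold change -1.39, edgeR FDR = 0.00522). Without these libraries it fell 3.55-fold (log2 fold change -1.83 ± 0.13 (SE), edgeR FDR = 8.19e-07).

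The cyclins, named here after their values were seen, did not move alike. Ccnb1, which encodes cyclin B1, was at 37.2, 11.3, 51.5, 36.7 and 15.1 CPM in control and 45.0, 16.0, 54.9 and 53.1 CPM with doxorubicin, higher in each of the 4 embryos but not past the threshold (log2 fold change 0.58 ± 0.30 (SE), edgeR FDR = 0.136). Ccnb2, for cyclin B2, was at 38.9, 13.2, 50.7, 39.9 and 19.1 CPM in control and 24.7, 4.52, 39.4 and 23.7 CPM with doxorubicin, lower in each embryo and not past the threshold without a block either (log2 fold change -0.55 ± 0.34 (SE), edgeR FDR = 0.2). Ccna2, for cyclin A2 of S phase and G2, differed by -0.72, 0.08, -0.84 and -0.40 on the log2 CPM scale in WT, Het, KO 1 and KO 2. It fell without Het and the KO 3 control (log2 fold change -0.63 ± 0.12 (SE), edgeR FDR = 0.00092), where Ccnb1 and Ccnb2 did not pass, at an edgeR FDR of 0.038 and 0.0157. With the replicate block Ccnb2 fell over 9 libraries (log2 fold change -0.75, edgeR FDR = 0.0074) and over 6 (log2 fold change -0.55, edgeR FDR = 3.86e-05), and Ccnb1 rose over 6 (log2 fold change 0.34, edgeR FDR = 0.00428) but did not pass over 9 (log2 fold change 0.40, edgeR FDR = 0.0176). Foxm1, for the transcription factor of the G2 genes, and Melk, for a kinase of dividing cells, had log2 fold changes of -0.74 and -0.70 over 9 libraries, not past the threshold, and fell by 1.09 and 1.13 on the log2 scale over 6 libraries. With the replicate block over 9 libraries both fell (Foxm1 log2 fold change -0.89, edgeR FDR = 0.00154, and Melk log2 fold change -0.89, edgeR FDR = 0.00487). Foxm1 was at 83.2, 32.5, 96.4, 85.7 and 42.5 CPM in control and 34.4, 25.1, 47.9 and 40.3 CPM with doxorubicin, where the Het library stood lowest. Plk1, for Polo-like kinase 1, was at 94.7, 15.2, 148, 103 and 20.9 CPM in control and 97.5, 36.2, 119 and 102 CPM with doxorubicin. Its log2 fold change was 0.49 over 9 libraries and -0.07 over 6, with neither past the threshold. Cdc25b, another CDC25 phosphatase, had -0.23 over 9 libraries and fell over 6 (-0.66), and Cdca3, which helps destroy WEE1, had 0.30 and 0.16, past neither threshold.

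In the chromosomal passenger complex, which corrects wrong attachments of the spindle, 0 of 4 members passed over 9 libraries, by edgeR, with 1 (Aurkb) at an unadjusted p under 0.05, and 0 passed by DESeq2. Incenp, the scaffold, was at 73.1, 38.6, 91.4, 76.1 and 53.03 CPM in control and 76.4, 60.0, 85.8 and 86.2 CPM with doxorubicin, with a log2 fold change of 0.33 ± 0.18 (SE), edgeR FDR = 0.153. Birc5, for survivin, went from 48.0, 25.01, 77.1, 56.3 and 38.2 CPM to 32.5, 18.9, 45.4 and 37.9 CPM (-0.42 ± 0.20 (SE), edgeR FDR = 0.108). Both overlapped between treatments, the control range being wider than the doxorubicin range for each. Aurkb, the kinase of the complex, stood at 33.6, 13.0, 45.9, 37.6 and 18.3 CPM in control and 17.7, 6.90, 23.3 and 23.7 CPM with doxorubicin, with a log2 fold change of -0.65 ± 0.26 (SE), edgeR FDR = 0.0571. It was lower in each embryo, with doxorubicin minus control at -0.92, -0.90, -0.98 and -0.66 on the log2 CPM scale in WT, Het, KO 1 and KO 2. Over 6 libraries Aurkb and Birc5 fell, by 0.82 and 0.61 on the log2 scale, and Cdca8, for borealin, did not pass (-0.44 ± 0.14 (SE), edgeR FDR = 0.0148). With the replicate block over 9 libraries Aurkb and Birc5 fell (Aurkb log2 fold change -0.82, edgeR FDR = 0.000463, and Birc5 log2 fold change -0.53, edgeR FDR = 0.00298), and over 6 libraries with the block Cdca8 fell too (log2 fold change -0.42, edgeR FDR = 0.000642).

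Of the 4 genes of the spindle assembly checkpoint, 1 fell over 9 libraries. Mad2l1 encodes MAD2, the inhibitor that keeps CDC20 from the anaphase-promoting complex. It stood at 43.4, 30.6, 60.9, 44.2 and 50.6 CPM in control and 29.8, 13.0, 35.1 and 31.4 CPM with doxorubicin. The decrease was 1.63-fold (log2 fold change -0.71 ± 0.16 (SE), edgeR FDR = 0.00602), lower in 4 of 4 embryos, and the groups overlapped, since the Het control lay at the level of the WT and KO libraries with doxorubicin. It stayed past the threshold in 2 of 9 fits with 1 library left out, at an edgeR FDR between 0.00215 and 0.0224, without the KO 2 or the KO 3 control. Bub1b, for BUBR1, was at 66.4, 17.6, 87.4, 70.3 and 24.3 CPM and 43.6, 18.6, 53.2 and 50.3 CPM in the 2 treatments, with a log2 fold change of -0.20 ± 0.33 (SE), edgeR FDR = 0.635. Bub1, the kinase that recruits checkpoint proteins to the kinetochore, was at 47.7, 15.4, 55.8, 44.1 and 22.2 CPM and 50.1, 11.7, 56.9 and 52.1 CPM (0.21 ± 0.26 (SE), edgeR FDR = 0.526). Both overlapped between treatments, with the Het libraries and the KO 3 control lowest for each. Without Het and the KO 3 control, Mad2l1, Bub1b and Ttk, for the kinase MPS1, fell by 0.59, 0.57 and 0.56 on the log2 scale, and Bub1 did not pass (0.14 ± 0.11 (SE), edgeR FDR = 0.248). Ttk also fell with the replicate block over 9 libraries (log2 fold change -0.61, edgeR FDR = 0.00615).

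The 6 centromere and kinetochore genes moved in both directions, with 1 lower and 2 higher over 9 libraries, and the median log2 fold change of the role was 0.63. Cenpe, the kinesin that brings chromosomes to the spindle equator, was at 80.3, 23.8, 106, 79.0 and 31.5 CPM in control and 156, 79.8, 146 and 144 CPM with doxorubicin. It was higher in each embryo but missed the threshold (log2 fold change 1.21 ± 0.32 (SE), edgeR FDR = 0.0118), and the Het library with doxorubicin stood at the level of the WT and KO 2 controls. It passed without the KO 1 control and without the KO 3 control, its edgeR FDR lying between 0.000899 and 0.0536 with 1 library left out, and it rose over 6 libraries (0.79 ± 0.13 (SE), edgeR FDR = 0.00025) and with the replicate block over 9 (log2 fold change 1.05, edgeR FDR = 0.00183). Cenpa, for the histone H3 variant of centromeres, rose 1.58-fold (log2 fold change 0.66 ± 0.14 (SE), edgeR FDR = 0.00426), from 38.2, 30.5, 58.4, 40.1 and 46.0 CPM to 63.0, 48.8, 71.3 and 69.5 CPM. The Het library with doxorubicin lay below the KO 1 control, and Cenpa kept its call in 2 of 9 fits with 1 library left out, without the KO 1 or the KO 3 control, at an edgeR FDR between 0.0015 and 0.0252.

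The NDC80 complex, which binds the microtubule end, has 3 subunits among these genes. Spc25 was at 28.2, 22.6, 36.4, 26.9 and 30.3 CPM in control and at 59.2, 55.6, 56.0 and 81.1 CPM with doxorubicin, without overlap. It rose 2.30-fold (log2 fold change 1.20 ± 0.16 (SE), edgeR FDR = 0.00034) and stayed past the threshold in 9 of 9 fits with 1 library left out. Nuf2, of the same complex, was at 32.8, 12.4, 48.7, 33.6 and 20.4 CPM in control and at 11.9, 3.19, 18.6 and 12.1 CPM with doxorubicin. The Het control lay within the range of the doxorubicin libraries. Nuf2 fell 2.55-fold (log2 fold change -1.35 ± 0.29 (SE), edgeR FDR = 0.0039), and doxorubicin minus control was -1.46, -1.93, -1.39 and -1.46 on the log2 CPM scale in WT, Het, KO 1 and KO 2. Its call held in 4 of 9 fits with 1 library left out, those without the KO 1, KO 2 or KO 3 control or the KO 1 doxorubicin library, at an edgeR FDR between 0.000103 and 0.0206. Ndc80 was at 25.8, 7.04, 32.0, 23.7 and 14.6 CPM in control and 30.7, 13.3, 36.4 and 30.7 CPM with doxorubicin, higher in each embryo. It had a log2 fold change of 0.59 ± 0.24 (SE), edgeR FDR = 0.0595, so that of the 3 Spc25 and Nuf2 passed, in opposite directions. Ndc80 rose over 6 libraries with the replicate block (log2 fold change 0.31, edgeR FDR = 0.0074). Cenpf, a protein of the outer kinetochore, was not past the threshold over 9 libraries (-0.22) and fell over 6 (-0.54).

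Among the 9 spindle motors and spindle proteins, 1 fell and 1 rose. Tpx2, which activates Aurora A on the spindle, was the most abundant by CPM, at 163, 40.4, 216, 156 and 46.2 CPM in control and 66.3, 29.7, 85.6 and 69.4 CPM with doxorubicin. Its log2 fold change was -0.81 ± 0.39 (SE), edgeR FDR = 0.111, with the Het and KO 3 controls below all but the Het library of doxorubicin, and it fell 2.36-fold over 6 libraries and with the replicate block over 9 (log2 fold change -1.02, edgeR FDR = 0.000862). Hmmr, a spindle assembly factor, was at 66.1, 21.5, 84.5, 58.9 and 30.4 CPM and 67.2, 35.5, 74.3 and 70.6 CPM and did not pass over 9 or 6 libraries (log2 fold changes 0.39 and 0.05).

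Nusap1 and Dlgap5 both encode proteins that stabilise spindle microtubules, and they changed in opposite directions. Nusap1 stood at 28.2, 10.4, 38.2, 27.9 and 11.6 CPM in control and 64.8, 28.8, 67.4 and 66.9 CPM with doxorubicin. It rose 2.65-fold (log2 fold change 1.40 ± 0.30 (SE), edgeR FDR = 0.00374), and the KO 1 control was above the Het library with doxorubicin. Dlgap5 stood at 38.5, 11.6, 37.5, 28.5 and 16.4 CPM in control and 17.3, 3.90, 15.9 and 14.7 CPM with doxorubicin, and it fell 2.04-fold (log2 fold change -1.03 ± 0.25 (SE), edgeR FDR = 0.00821). The Het control lay within the range of the doxorubicin libraries, as did KO 3. The call of Nusap1 held in 3 of 9 fits with 1 library left out, those without a KO control, and that of Dlgap5 in 1 of 9, that without the KO 3 control, at an edgeR FDR between 4.22e-05 and 0.0188 for Nusap1 and between 7.77e-05 and 0.0369 for Dlgap5. The 5 kinesins Kif11, Kif15, Kif18a, Kif2c and Kif4, which slide microtubules, shorten them or carry chromosomes, had log2 fold changes of 0.07, -0.55, 0.28, -0.46 and -0.30, none past the threshold. Kif2c and Kif4 fell over 6 libraries (-0.69 and -0.60), Kif2c fell with the replicate block over 9 (log2 fold change -0.66, edgeR FDR = 0.000731), and Kif15 fell with the block over 6 (log2 fold change -0.38, edgeR FDR = 0.00539).

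None of the 4 genes of anaphase and protein destruction passed over 9 libraries by edgeR, with 1 (Pttg1) at an unadjusted p under 0.05, which passed by DESeq2. Cdc20, the activator of the anaphase-promoting complex, was at 114, 26.4, 165, 122 and 39.2 CPM in control and 104, 52.9, 136 and 117 CPM with doxorubicin, with a log2 fold change of 0.36 ± 0.38 (SE), edgeR FDR = 0.442. Ube2c, the E2 enzyme of that complex, was at 72.3, 22.2, 97.3, 68.8 and 29.6 CPM and 49.1, 15.2, 69.4 and 48.1 CPM (-0.28 ± 0.31 (SE), edgeR FDR = 0.468). Ube2c fell with the replicate block over 9 libraries (log2 fold change -0.48, edgeR FDR = 0.00239) and over 6 (log2 fold change -0.48, edgeR FDR = 1.84e-05). Outside Het and the KO 3 control, the libraries of Cdc20 lay between 104 and 165 CPM in both treatments.

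Pttg1 encodes securin, the inhibitor of separase, and it was the only member above WT in the Het control. It stood at 11.3, 19.7, 9.83, 9.98 and 21.2 CPM in control, so that the Het and KO 3 controls were the highest of the 5, and at 29.9, 27.8, 27.8 and 29.5 CPM with doxorubicin. The doxorubicin libraries were above all controls, yet the FDR of 9 libraries missed the threshold (log2 fold change 1.05 ± 0.27 (SE), edgeR FDR = 0.0107). Pttg1 passed without the KO 3 control, its edgeR FDR lying between 0.000188 and 0.0462 with 1 library left out, and without Het and that control it rose (log2 fold change 1.52 ± 0.11 (SE), edgeR FDR = 1.35e-06), as with the replicate block over 9 libraries (log2 fold change 1.29, edgeR FDR = 0.000599). Espl1, separase itself, had -0.13 over 9 libraries and fell over 6 (-0.36).

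Of the 7 cytokinesis genes 1 fell over 9 libraries and 5 over 6 libraries, and the median log2 fold change of the role was -0.76 over 9. Racgap1 and Kif23 together encode centralspindlin, which bundles the microtubules between the daughter nuclei and recruits ECT2. Racgap1 was at 102, 27.1, 140.0, 98.6 and 34.3 CPM in control and 29.7, 6.28, 39.3 and 27.7 CPM with doxorubicin. It fell 3.06-fold (log2 fold change -1.61 ± 0.37 (SE), edgeR FDR = 0.0061), and doxorubicin minus control was -1.78, -2.09, -1.83 and -1.83 on the log2 CPM scale in WT, Het, KO 1 and KO 2. The Het and KO 3 controls overlapped the doxorubicin libraries, and with 1 library left out the call held in 1 of 9 fits, that without the KO 3 control, at an edgeR FDR between 1.01e-05 and 0.0314. Kif23 was at 61.1, 18.8, 84.9, 66.2 and 25.5 CPM in control and 51.97, 28.6, 53.02 and 49.5 CPM with doxorubicin, with the Het and KO 3 controls the lowest of all libraries. It did not pass over 9 libraries (log2 fold change 0.02 ± 0.33 (SE), edgeR FDR = 0.96), and it fell over 6 (-0.41 ± 0.12 (SE), edgeR FDR = 0.00993).

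Anln, for the ring protein anillin, stood at 194, 38.9, 294, 193 and 52.04 CPM in control and 67.0, 17.7, 96.2 and 63.7 CPM with doxorubicin. Its log2 fold change of -1.19 ± 0.43 (SE), edgeR FDR = 0.0421 did not pass, although each embryo was lower, and it fell 2.93-fold over 6 libraries and with the replicate block over 9 (log2 fold change -1.42, edgeR FDR = 3.56e-05). Prc1, which crosslinks the midzone microtubules, was at 141, 31.1, 209, 136 and 44.6 CPM and 125, 63.8, 137 and 125 CPM (0.25 ± 0.41 (SE), edgeR FDR = 0.629), higher with doxorubicin in Het and lower in the other 3 embryos. Ect2, for the exchange factor that activates RhoA, and Kif14, a midbody kinesin, had log2 fold changes of -0.76 and -1.26 over 9 libraries, not past the threshold, and fell over 6 (-1.14 and -1.66). With the replicate block over 9 libraries both fell (Ect2 log2 fold change -0.96, edgeR FDR = 0.000705, and Kif14 log2 fold change -1.45, edgeR FDR = 0.00041). Kif14 was at 16.4, 5.03, 19.6, 17.5 and 6.45 CPM in control and 5.03, 2.85, 6.34 and 5.19 CPM with doxorubicin, lower in each embryo. Kif20a, a kinesin of the midzone, had 0.24, and 1271 of the 4338 exon bases annotated for it are shared with another coding gene, Cdc23.

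Condensin folds the chromosomes, and 1 of its 5 genes fell over 9 libraries. Smc4, a core ATPase, was at 93.1, 62.5, 85.9, 86.0 and 82.2 CPM in control and 53.8, 46.8, 47.5 and 56.5 CPM with doxorubicin, and every doxorubicin library was below every control. It fell 1.53-fold (log2 fold change -0.61 ± 0.13 (SE), edgeR FDR = 0.00352). Its partner Smc2 differed by -1.10, 0.14, -0.97 and -1.01 in WT, Het, KO 1 and KO 2 on the log2 CPM scale and did not pass (-0.57 ± 0.27 (SE), edgeR FDR = 0.0968). Smc4 kept its call in 4 of 9 fits with 1 library left out, those without a Het library or the KO 1 or KO 3 control, at an edgeR FDR between 0.00083 and 0.0267. Ncapd2, the most abundant condensin subunit by CPM, was at 133, 45.5, 156, 136 and 63.2 CPM and 149, 81.7, 154 and 141 CPM (0.45 ± 0.26 (SE), edgeR FDR = 0.177). Ncapg, the subunit with the lowest log2 fold change, was at 34.1, 12.3, 45.3, 34.7 and 21.4 CPM and 18.3, 5.99, 19.5 and 19.9 CPM (-0.82 ± 0.22 (SE), edgeR FDR = 0.0113). Ncaph, the kleisin, was at 45.8, 16.3, 49.7, 45.5 and 18.2 CPM in control and 17.9, 21.0, 23.8 and 20.9 CPM with doxorubicin, higher with doxorubicin in Het and lower in the other 3 embryos. Over 6 libraries Smc2, Smc4, Ncapg and Ncaph fell by 0.99, 0.71, 0.95 and 1.14 on the log2 scale, and Ncapd2 did not pass (0.10). Ncapg also fell with the replicate block over 9 libraries (log2 fold change -0.94, edgeR FDR = 0.000298).

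Mki67, for the Ki-67 protein that coats mitotic chromosomes and marks dividing cells, was at 190.3, 53.6, 225, 195 and 71.2 CPM in control and 85.9, 44.1, 92.6 and 76.8 CPM with doxorubicin. The Het and KO 3 controls were the lowest controls and lay within the range of the doxorubicin libraries. Over 9 libraries Mki67 did not pass (log2 fold change -0.80 ± 0.33 (SE), edgeR FDR = 0.0678), and over 6 libraries it fell 2.33-fold (-1.22 ± 0.11 (SE), edgeR FDR = 3.92e-06), as with the replicate block over 9 (log2 fold change -0.97, edgeR FDR = 0.00211).

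Per kb of annotated exon, the mean control level ran from 50.01 CPM per kb for Cdc20, 34.8 for Plk1 and 26.6 for Tpx2 down to 1.26 for Kif14 and 1.04 for Kif18a. With doxorubicin the highest means were 64.5 CPM per kb for Aurka, 54.9 for Cdc20 and 40.3 for Plk1. Exons of 13 members share bases with another coding gene, among them Cdc25c and Nusap1 of the 10 called.

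Promoter sequences were available for 43 of the 52 members in the RefSeq table of GRCm38.p6, each running from 250 bases before to 50 after the start of the gene. They are shown because G2 genes are known to be bound at the cell cycle genes homology region (CHR) by the MuvB proteins and at CCAAT boxes by NF-Y. The CHR was searched as TTTGAA on either strand or TTCGAA, which reads the same on both, and the other motif as CCAAT on either strand. Capitals mark these letters and their reverse complements. Cyclin B and CDK1, the kinase PLK1 and the activator CDC20 stand first, followed by Aurka and Nusap1, which rose, and Racgap1, which fell, these 3 being chosen after their values were seen.
Ccnb1 (chr13:100786437-100786736, minus strand): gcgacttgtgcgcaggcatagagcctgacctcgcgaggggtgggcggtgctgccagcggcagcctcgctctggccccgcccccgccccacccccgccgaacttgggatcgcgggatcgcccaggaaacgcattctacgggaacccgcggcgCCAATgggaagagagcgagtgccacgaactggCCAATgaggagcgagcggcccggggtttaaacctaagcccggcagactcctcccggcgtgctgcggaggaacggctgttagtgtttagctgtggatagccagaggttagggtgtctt
Ccnb2 (chr9:70421505-70421804, minus strand): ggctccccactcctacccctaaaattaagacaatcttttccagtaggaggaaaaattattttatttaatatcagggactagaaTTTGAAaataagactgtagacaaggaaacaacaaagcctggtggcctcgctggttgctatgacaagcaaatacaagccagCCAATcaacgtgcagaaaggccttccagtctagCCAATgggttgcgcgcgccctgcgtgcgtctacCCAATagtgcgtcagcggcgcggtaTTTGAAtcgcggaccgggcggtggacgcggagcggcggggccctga
Cdk1 (chr10:69352863-69353162, minus strand): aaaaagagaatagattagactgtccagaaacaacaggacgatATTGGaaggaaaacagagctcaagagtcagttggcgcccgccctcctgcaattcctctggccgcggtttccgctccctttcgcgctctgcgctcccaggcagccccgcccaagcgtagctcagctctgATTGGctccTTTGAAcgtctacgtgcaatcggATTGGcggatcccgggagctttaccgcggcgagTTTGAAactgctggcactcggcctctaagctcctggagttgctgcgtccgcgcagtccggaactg
Plk1 (chr7:122159185-122159484, plus strand): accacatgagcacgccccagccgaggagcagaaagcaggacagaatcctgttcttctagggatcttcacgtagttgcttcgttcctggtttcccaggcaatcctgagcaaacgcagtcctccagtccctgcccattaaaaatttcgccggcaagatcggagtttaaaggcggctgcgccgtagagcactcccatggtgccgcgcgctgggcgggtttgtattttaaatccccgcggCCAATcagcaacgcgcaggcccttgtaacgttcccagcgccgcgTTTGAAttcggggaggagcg
Cdc20 (chr4:118437294-118437593, minus strand): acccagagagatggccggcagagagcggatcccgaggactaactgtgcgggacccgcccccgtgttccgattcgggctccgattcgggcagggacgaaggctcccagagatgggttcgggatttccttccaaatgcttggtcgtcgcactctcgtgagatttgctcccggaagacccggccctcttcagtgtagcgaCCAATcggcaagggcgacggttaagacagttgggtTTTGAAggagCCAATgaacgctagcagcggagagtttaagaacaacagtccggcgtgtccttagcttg
Aurka (chr2:172370521-172370820, minus strand): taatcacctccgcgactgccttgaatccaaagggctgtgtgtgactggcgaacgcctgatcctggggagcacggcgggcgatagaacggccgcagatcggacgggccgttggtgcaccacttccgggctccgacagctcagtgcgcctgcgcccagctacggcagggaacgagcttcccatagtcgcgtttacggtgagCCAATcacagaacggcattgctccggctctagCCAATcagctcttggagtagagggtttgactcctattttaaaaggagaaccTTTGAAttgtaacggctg
Nusap1 (chr2:119618048-119618347, plus strand): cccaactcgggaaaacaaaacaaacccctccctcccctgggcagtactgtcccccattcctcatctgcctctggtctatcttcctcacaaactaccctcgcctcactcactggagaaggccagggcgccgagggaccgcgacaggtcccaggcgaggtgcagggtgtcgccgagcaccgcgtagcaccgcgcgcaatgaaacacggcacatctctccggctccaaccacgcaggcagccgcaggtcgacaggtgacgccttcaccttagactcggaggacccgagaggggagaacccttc
Racgap1 (chr15:99651607-99651906, minus strand): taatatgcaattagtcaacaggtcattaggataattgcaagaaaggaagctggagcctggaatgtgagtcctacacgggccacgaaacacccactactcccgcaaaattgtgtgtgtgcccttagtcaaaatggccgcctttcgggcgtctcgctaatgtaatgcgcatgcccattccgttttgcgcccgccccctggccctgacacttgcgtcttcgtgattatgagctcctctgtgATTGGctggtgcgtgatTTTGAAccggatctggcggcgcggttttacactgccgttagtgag

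Of the 45 member promoters (Ect2 and Prc1 have 2 each), 34 held a CHR (75.6%), against 19.2% of all 32851 promoters and 13.6% of those of genes tested. CCAAT was in 33 of 45 (73.3%), against 37.4% and 37.0%, and both motifs stood in 30 of 45 (66.7%), against 7.52% and 5.47%. In 1 promoter a CHR and a CCAAT shared a base. Counted from the start of the gene as base 0, a CHR began between bases -50 and 49 in 28 members, and a CCAAT began between -150 and 0 in 30. The share of all promoters with a match in these windows was not computed, so these positions cannot be called particular to the members. The Ccnb2 promoter has a CHR at -167 and 4 and CCAAT at -87, -54 and -21, that of Cdc20 a CHR at -18 and CCAAT at -53 and -8, and that of Racgap1 a CHR at 5 and CCAAT on the reverse strand at -12. The Nusap1 promoter holds neither motif in this window, and the Ccnb1 promoter has CCAAT at -99 and -67 and no CHR. A match of these letters is a description and not a bound site.

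The members with and without a CHR overlapped widely in their response. With doxorubicin the median log2 fold change was -0.21 for the 32 members with a CHR, from -1.61 to 1.85, and -0.42 for the 11 without, from -1.35 to 1.40. Over 6 libraries the medians were -0.46 and -0.59. Of the called members with a promoter in the table, 1 of 3 that fell and 3 of 4 that rose held a CHR.

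**Figure D5:**
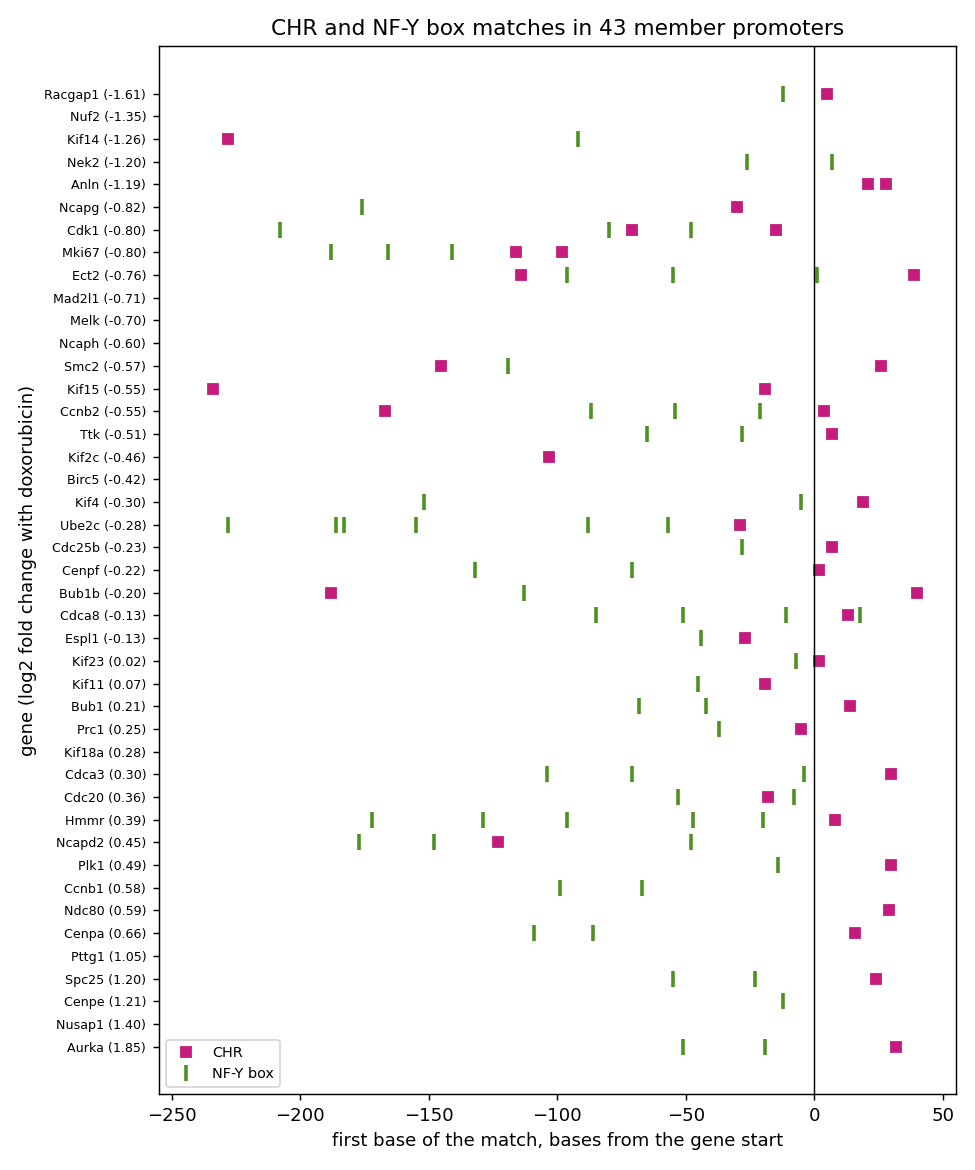
Position of the CHR (squares) and of the NF-Y box, CCAAT (bars), in the promoters of 43 members (vertical axis, ordered by log2 fold change with doxorubicin, in parentheses), with the first promoter shown for Ect2 and Prc1. The horizontal axis is the distance in bases of the first base of a match from the gene start. Racgap1 and Aurka, at the 2 ends of the order, have a square near the start, at 5 and 32. Nuf2 and Nusap1, next to them, have none.

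The other genes of the pathway, from lists of complexes outside the 52, also moved in both directions. Over 9 libraries 20.2% of the 14883 genes tested fell and 21.9% rose, to be set beside the counts of each list below. Of 29 other kinetochore and centromere genes 7 fell and 4 rose, with a median log2 fold change of -0.27. Ska1, of the complex that tracks microtubule ends, fell from 5.89, 4.46, 7.92, 5.02 and 6.99 CPM in control to 1.44, 0.428, 1.10 and 1.15 CPM (log2 fold change -2.55 ± 0.30 (SE), edgeR FDR = 0.000187). Cenpo fell by 1.64 on the log2 scale, while Cenpn and Cenph rose by 1.21 and 1.04, all 3 being subunits of the constitutive centromere network.

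Of 31 other spindle, centrosome and cytokinesis genes, 3 fell and 4 rose, with a median of 0.11. Fam83d, which anchors casein kinase 1 to the spindle, rose from 38.2, 7.61, 47.0, 37.2 and 11.5 CPM in control to 272, 156, 285 and 291 CPM with doxorubicin (log2 fold change 3.40 ± 0.42 (SE), edgeR FDR = 0.000243). Ckap5, the microtubule polymerase ch-TOG, fell from 168, 64.6, 169, 164 and 62.9 CPM to 25.8, 28.0, 25.1 and 26.8 CPM (-2.13 ± 0.36 (SE), edgeR FDR = 0.00121). Trip13, which remodels MAD2, fell by 1.51 on the log2 scale, and the kinesin Kif18b rose by 1.46.

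Entry regulators and MuvB subunits, listed together with Top2a, Hmgb2 and Lmnb1, numbered 19, of which 4 fell and 5 rose. Top2a, for topoisomerase II alpha, the target of doxorubicin, fell from 241, 68.6, 283, 251 and 91.0 CPM to 31.4, 29.5, 37.4 and 31.0 CPM (log2 fold change -2.33 ± 0.41 (SE), edgeR FDR = 0.00153), and Ensa, an inhibitor of the phosphatase PP2A, fell by 1.38 on the log2 scale. Lin9, a core MuvB subunit, and Pkmyt1, a kinase that inhibits CDK1, rose by 1.97 and 1.21. In the anaphase-promoting complex 7 of 17 genes fell and 1 rose, Anapc4 and Cdc26 falling by 2.85 and 1.99 and Anapc13 rising by 0.78, with a median of -0.46. Among 16 genes of cohesin and condensin II 6 fell and 2 rose, with a median of -0.75. Pds5b and Stag2, cohesin subunits, fell by 2.69 and 1.40, and Esco2 and Cdca5, which secure cohesion in S phase, rose by 2.08 and 1.54.

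Of the 34 G1/S and replication genes 3 fell and 5 rose, with a median of -0.02. Mcm2, of the replicative helicase, and Chaf1a, of a histone chaperone, fell by 1.68 and 1.46, and Orc1, of the origin complex, rose by 1.65. Of 15 p53 targets 1 fell and 3 rose, with a median of -0.22, Plk3 and Sfn rising by 1.62 and 1.64 and Phlda3 falling by 1.43. Beside these, 1 of 12 fibroblast markers fell and 0 rose, and 0 of 10 interferon-stimulated genes passed over 9 libraries by edgeR, with 0 at an unadjusted p under 0.05 and a median of -0.64. Without Het and the KO 3 control, 10 of the 10 interferon-stimulated genes rose, at a median log2 fold change of 3.29, and 5 of 12 fibroblast markers fell and 1 rose. Of all genes tested there, 32.4% fell and 35.4% rose. The controls left out had the highest summed interferon-stimulated levels (2177 and 2400 CPM), so the choice was not independent of this rise. By embryo, 10 of 10 were higher with doxorubicin in WT, KO 1 and KO 2. In Het 8 of 10 were lower, with a median difference of -1.18 in log2 CPM. Macrophage markers had 1 of 9 lower and 1 higher over 9 libraries, endothelial markers 0 of 4 tested lower and 1 higher, epithelial markers 1 of 4 tested lower and 2 higher, muscle markers 0 of 3 tested and neural and glial markers 1 of 4 tested in each direction.

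The study compared genotypes to follow the influence of 129P2 sequence carried along with the KO allele, and no member passed the test of KO against WT. In control 0 of 52 members passed by edgeR, DESeq2 or RUVg, with 0 at an unadjusted p under 0.05 by edgeR, where 0% of the 14470 genes tested passed and 10 had an unadjusted p under 0.05. For KO over WT the median was -0.08 on the log2 scale, and 36 members were below zero. Cenpa, Dlgap5 and Kif15 had the smallest p, with log2 fold changes of 0.37 ± 0.36 (SE), edgeR FDR = 1 for Cenpa, -0.46 ± 0.51 (SE) for Dlgap5 and 0.30 ± 0.34 (SE) for Kif15. The KO 3 control decided this median. Without it KO lay above WT with 3 members below zero and a median of 0.24, and without KO 1 it was -0.39 with 46 below zero. The 3 KO controls, which share a genotype, spanned a summed level of 1547 to 4323 CPM with WT at 3257 CPM between them. Dlgap5 alone of the members lies on chromosome 14, where the paper places Sall2 and its 129P2 footprint. On the log2 CPM scale it differed from WT by -0.04, -0.43 and -1.23 in the KO 1, KO 2 and KO 3 controls. With doxorubicin it differed by -0.12 and -0.23 in KO 1 and KO 2. Whether 129P2 sequence at Dlgap5 had a part in this was not tested.

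With doxorubicin 0 of 52 members passed for KO against WT by edgeR or DESeq2, with 0 at an unadjusted p under 0.05 by edgeR, where 0.197% of the 15256 genes tested passed. The median was 0.16 and 12 members were below zero. Foxm1, Birc5 and Aurkb had the smallest p, with log2 fold changes of 0.36 ± 0.20 (SE), edgeR FDR = 1 for Foxm1, 0.36 ± 0.20 (SE) for Birc5 and 0.41 ± 0.23 (SE) for Aurkb. Here WT had 1 library and KO 2, so the spread rests on 1 pair of libraries. Summed over the 52 members, the level was 2634 CPM in WT, 2983 and 2718 CPM in KO 1 and KO 2 and 1349 CPM in Het. The Het library was below WT for 50 of 52 members, with a median difference of -1.08 on the log2 CPM scale, and with 1 Het library this difference has no replicate check. In that Het library macrophage markers summed to 691 CPM against 147 CPM in WT, interferon-stimulated genes to 1420 against 332 CPM and fibroblast markers to 23196 against 63169 CPM, and their part in the difference was not tested.

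Whether the doxorubicin response differed between KO and WT was asked with the interaction term of edgeR. None of 52 members passed, with 0 at an unadjusted p under 0.05 and 0 by DESeq2, and 0% of the 15905 genes tested passed. The median interaction was 0.25 on the log2 scale, KO minus WT, with 8 members below zero. The smallest p belonged to Foxm1, Ncaph and Smc2, with interactions of 0.51 ± 0.69 (SE), edgeR FDR = 1 for Foxm1, 0.60 ± 0.82 (SE) for Ncaph and 0.37 ± 0.63 (SE) for Smc2. Without the KO 3 control the median was -0.08 and 36 members were below zero, and with the embryo as a replicate block it was -0.05 with 30 below zero, 0 members past the threshold and 2 at an unadjusted p under 0.05. The block again takes the KO 3 control out of the contrast, so these 2 alternatives are not separate checks. The SE of the interaction ran from 0.35 for Smc4 to 1.35 for Plk1 over the 52 members, so that differences in response of the size of many changes given above were not detectable here.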

How the data were processed

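RNA of primary MEFs was depleted of rRNA, enriched for mRNA and sequenced from stranded libraries. The authors joined 4 FASTQ files per library, aligned the reads to mm10 with HISAT2 (version 2.1.0 per the submitters' processing notes, another in the methods), sorted them with Picard, and deposited HTSeq counts per gene (union mode, iGenomes annotation, strand setting not given), without normalization. Of 10 libraries 9 were used, the identical KO pair being counted once. Here the counts were scaled by TMM, filtered with filterByExpr over the groups compared and tested with edgeR 4.0.16 in R 4.3.3 (quasi-likelihood, two-sided, Benjamini-Hochberg over all genes tested, FDR under 0.01). The SE is the log2 fold change over the root of F. CPM on the log2 scale used a prior count of 2. Labels do not state that cultures were independent, so p-values measure the spread between these libraries, and the floors of 3 counts cover counting error only. The fits were also run on simulated counts, which varied less between libraries than the real counts. That run does not show how well the fits perform on these data.

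Same-numbered control and doxorubicin libraries were taken as pairs from 1 embryo. As a check, KO 1 minus KO 2 in control correlated with the same difference under doxorubicin (Pearson r = 0.384 over 14883 genes, themselves not independent), and in each of the 4 pairs both libraries held mostly Xist or mostly Y-linked counts. Since WT, Het and KO 2 all held mostly Xist counts, the latter check cannot tell their pairs apart. The study used RUVg and edgeRun for genotypes, and RUVg with edgeR's exact test was an alternative, as were DESeq2 1.42.0, other scalings and filters, the block and each library left out. Values per library are given in each role for the 2 members with the highest mean CPM and those with the lowest and highest log2 fold change with doxorubicin, for genotype for the 3 with the smallest p, and of other lists for up to 2 genes past the threshold in each direction at a mean of at least 1 CPM, of which 1 is not reported here. Members and lists were chosen with earlier results of these data known. Exon lengths are those of GENCODE M21 (GRCm38), and promoters are those of RefSeq (GRCm38.p6). In 39 of 45 member promoters, the last bases were found in sense in a GENCODE transcript of the gene.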

Additional observations from a re-analysis of the deposited data

Results flagged for a closer look

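Within the controls and within the doxorubicin libraries, a member's highest or lowest library was marked where it lay far from the nearest of the others by Dixon's criterion. Of 104 sets of libraries, 21 were marked. The criterion marks about 1 in 20 independent sets by chance, but these sets share the same libraries. The 21 can therefore not be set against that rate, and the share of all genes marked was not computed. In 20 of the 21 marked sets the Het library with doxorubicin was the lowest of the 4. That library was the lowest of the 4 for 50 of 52 members (96.2%), against 45.2% of the 14883 genes tested. In the same library macrophage markers summed to 691 CPM against 98.5 to 147 CPM in the other 3, interferon-stimulated genes to 1420 against 332 to 419 CPM and fibroblast markers to 23196 against 50219 to 63169 CPM, and their part in this was not tested. The Het library with doxorubicin had 16.0 CPM against 45.0 to 54.9 CPM in the other 3 for Ccnb1, 22.7 CPM against 64.6 to 77.4 CPM for Cdk1, 36.2 CPM against 97.5 to 119 CPM for Plk1, 7.42 CPM against 15.5 to 17.1 CPM for Melk and 14.9 CPM against 32.3 to 37.6 CPM for Cdca8. Further values of that library were 11.7 CPM against 50.1 to 56.9 CPM in the other 3 for Bub1, 3.95 CPM against 9.91 to 10.97 CPM for Ttk, 13.0 CPM against 29.8 to 35.1 CPM for Mad2l1, 79.8 CPM against 144 to 156 CPM for Cenpe and 8.09 CPM against 32.2 to 41.6 CPM for Kif2c. It also had 13.1 CPM against 27.0 to 31.3 CPM in the other 3 for Kif4, 28.8 CPM against 64.8 to 67.4 CPM for Nusap1, 35.5 CPM against 67.2 to 74.3 CPM for Hmmr, 3.90 CPM against 14.7 to 17.3 CPM for Dlgap5 and 63.8 CPM against 125 to 137 CPM for Prc1. The remaining values were 9.89 CPM against 27.1 to 32.8 CPM in the other 3 for Ect2, 28.6 CPM against 49.5 to 53.02 CPM for Kif23, 29.0 CPM against 97.0 to 124 CPM for Kif20a, 81.7 CPM against 141 to 154 CPM for Ncapd2 and 5.99 CPM against 18.3 to 19.9 CPM for Ncapg. Spc25 was marked for KO 2 with doxorubicin, the highest of the 4 at 81.1 CPM against 55.6 to 59.2 CPM.

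Some members moved one way with doxorubicin in the Het or WT embryo and the other way in both KO embryos. These are differences of log2 CPM, doxorubicin minus control, and the difference between Het and KO was not tested, since Het has 1 embryo. Of 52 members 12 did so in Het, 11 of them higher in Het and lower in both KO embryos. The share of all genes that did so, in Het or in WT, was not computed. A count of members can therefore not be called particular to them. The Het value against the KO values was 0.085 against -0.84 and -0.40 for Ccna2, 0.54 against -0.84 and -0.57 for Cdc25b, 1.24 against -0.31 and -0.02 for Plk1 and -0.40 against 0.028 and 0.24 for Bub1. They were 0.083 against -0.72 and -0.48 for Bub1b, 0.16 against -0.50 and -0.18 for Kif11, 1.00 against -0.28 and -0.063 for Cdc20 and 1.03 against -0.61 and -0.12 for Prc1. Het and KO further differed with 0.60 against -0.68 and -0.42 for Kif23, 0.083 against -0.089 and -0.034 for Kif20a, 0.36 against -1.12 and -1.06 for Ncaph and 0.14 against -1.01 and -0.97 for Smc2. In WT 3 members did so, with 0.042 against -0.31 and -0.02 for Plk1, 0.012 against -0.50 and -0.18 for Kif11 and 0.013 against -0.089 and -0.034 for Kif20a, where the interaction of KO and WT passed for 0 of 52 members by edgeR.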

How the results depend on the processing

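The count of members that fell, 5 over the 9 libraries, was 21 with the embryo as a replicate block, 1 with treatment as the only term, 0 in KO alone, 9 with DESeq2, 2 with upper-quartile scaling, 3 with the exact test, 8 with every gene of at least 1 count, 12 at an FDR under 0.05 and 0 at an FDR under 0.001. Leaving out 1 library in turn gave between 0 and 19. The block also takes the KO 3 control, which has no doxorubicin library, out of the treatment effect. Chosen after the data were seen, and with the members low in the controls left out, it was 28 without Het and the KO 3 control, 32 in that set with the replicate block, and 1 without Het. The count of members that rose, 5, was 0 in KO alone, 2 at an FDR under 0.001, between 3 and 7 with 1 library left out, 9 without Het and the KO 3 control with the replicate block, and 3 without Het. Over all genes, FDRs of 0.05 and 0.001 gave 4186 and 1495 lower and 4235 and 1898 higher, against 3004 and 3262 at 0.01, KO alone gave 710 and 1201, and the block 4290 and 4550. Of all genes, 19.3% fell with treatment alone, 24.6% with DESeq2, 16.2% with upper-quartile scaling and 21.3% with the exact test. With every gene of at least 1 count it was 15.2%. With 1 library left out, 12.1% to 29.4% of all genes fell and 14.4% to 31.5% rose. Without Het, 16.3% fell and 18.2% rose. Without Het and the KO 3 control, with the block, 36.3% fell and 39.3% rose.

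Kif23 turned from 0.02 to -0.41 without Het and the KO 3 control, with and without the block, and the cause was not tested. The 10 called members kept their direction under every alternative run. No member passed in the comparisons of genotype or in the interaction under any alternative, including the block, the identical libraries counted as 2, and RUVg, which called 75 genes lower and 66 higher in control. KO against WT with doxorubicin could not be fitted without either KO library, since no residual degrees of freedom were left. Where an arm keeps 1 library, that library is assumed to vary like the others. In KO against WT in control, library totals without TMM moved the median of all genes from 0.04 to 0.21.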
